A study of Homo sapiens with 2 samples.

Results

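The subject is the amino acid transporter genes of 5 solute carrier families, SLC1, SLC3, SLC7, SLC38 and SLC43, in 2 established human prostate cancer cell lines. The genes were taken by name alone: a gene belonged when its symbol was 1 of these family names followed by A and a member number. This gave 36 genes of the 20802 amplicons in the table. LNCaP came from a metastasis in a lymph node and MDA PCa 2b from a metastasis in bone. The labels describe both lines as wild type, name no added agent, and put total RNA of each line into 1 library. With 1 library per line there was no replicate spread, no test was possible, and every difference is between these libraries and not between the lines in general. The series was made to compare oncogenes and tumour suppressor genes between the lines, and the transporters are described here from the same table.

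Cells take up amino acids through membrane proteins with overlapping substrates. The light chains of the SLC7 family reach the cell surface only when joined by a disulfide bond to a heavy chain of the SLC3 family, and they exchange an amino acid inside for another outside. SLC7A5, known as LAT1, carries leucine and other large neutral amino acids in this way, and SLC43A1, known as LAT3, carries the same amino acids by facilitated diffusion without a heavy chain. SLC1A5 and the SLC38 carriers bring in glutamine, whose efflux can drive the exchangers. Leucine entering the cell is sensed upstream of the mTORC1 kinase, and shortage of amino acids raises translation of the transcription factor ATF4, which acts on several transporter genes. In prostate cancer cells LAT1 and LAT3 are known as leucine carriers, and SLC43A1 was first named for its high level in prostate cancer.

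Levels came from an amplicon assay, with 1 short amplicon per gene, so they do not scale with transcript length. A level of 1 gene against another also carries the unequal efficiency of their amplicons. In the ratio of the same gene between libraries this cancels only if the amplicon works alike in both lines, which was not tested. The LNCaP library held 10778061 counts and the MDA PCa 2b library 8558660. Levels are given as CPM, which is counts divided by the library total and a trimmed-mean factor, and 1 count was worth 0.0923 CPM in LNCaP against 0.117 CPM in MDA PCa 2b. A gene was taken as measured with at least 10 counts in a library. It was called apart when the exact 95% interval of its ratio, which covers counting error only, lay wholly beyond 2-fold. Small nucleolar RNAs took 1.48% of LNCaP counts and 6.18% of MDA PCa 2b counts, and scaling without them changed no call on the transporters. All 9 prostate luminal markers were measured in both libraries. Fibroblast markers summed to 25.9 and 7.17 CPM, leukocyte markers to 19.7 and 49.5, and endothelial markers to 3.51 and 4.35. Of these lists 5 of 8, 5 of 8 and 3 of 5 were under 10 counts in both libraries, with PTPRC, CD3E, LYZ, CDH5, KDR, TEK and COL1A2 at 0 in both. Of the 8 measured markers, CD68 and CD14 were called higher in MDA PCa 2b, while COL1A1, ACTA2 and VWF were called higher in LNCaP. COL3A1 had 10 and 0 counts, ITGAM 27 and 20 and PECAM1 18 and 36, and none of these was called. The part of other cell types in the transporter ratios was not tested. In such bulk RNA, fewer cells of a kind and less RNA per cell cannot be told apart.

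Of the 36 transporters, 24 were measured and 8 of those were called apart, with 4 in each direction. The 4 higher in MDA PCa 2b were SLC7A5, SLC7A6, SLC1A4 and SLC43A1. All carry neutral amino acids, as do members that were not called, such as SLC1A5, SLC38A1 and SLC43A2. The 4 higher in LNCaP were SLC7A2, SLC1A1, SLC1A3 and SLC38A6. The 8 made up 33.3% of the measured transporters, against 24.1% of all 14418 measured genes in either direction and 29.5% of 207 other measured solute carriers. In each direction 4 of 24 stand beside a background of 10.9% of genes toward MDA PCa 2b against 13.2% toward LNCaP, so the share called is near that of genes in general and is no result about the family. The median log2 ratio of the measured transporters, MDA PCa 2b over LNCaP, was 0.41, against -0.0018 over all measured genes and -0.23 over the other solute carriers. Their ratio was above 1 for 15 and below 1 for 9. Summed over all 36, transporters stood at 1731 CPM in LNCaP against 2393 CPM in MDA PCa 2b, a ratio of 1.38.

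The most read transporters were nearly the same in both libraries. SLC38A2 led both, and SLC3A2, SLC7A11, SLC7A1 and SLC1A5 filled the next 4 places in LNCaP and the places down to the fifth in MDA PCa 2b, with SLC7A1 ahead of SLC7A11 there. These 5 genes held 80.4% of the summed transporter level in LNCaP against 69.0% in MDA PCa 2b. They were the transporters above 100 CPM in LNCaP, while MDA PCa 2b had 8 above that line, the further 3 being SLC7A5, SLC1A4 and SLC43A1. By its own row SLC7A5 stood 18th among the transporters in LNCaP and 6th in MDA PCa 2b. With the rows of its pseudogenes added, it stood 6th in LNCaP and 4th in MDA PCa 2b.

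**Figure D1:**
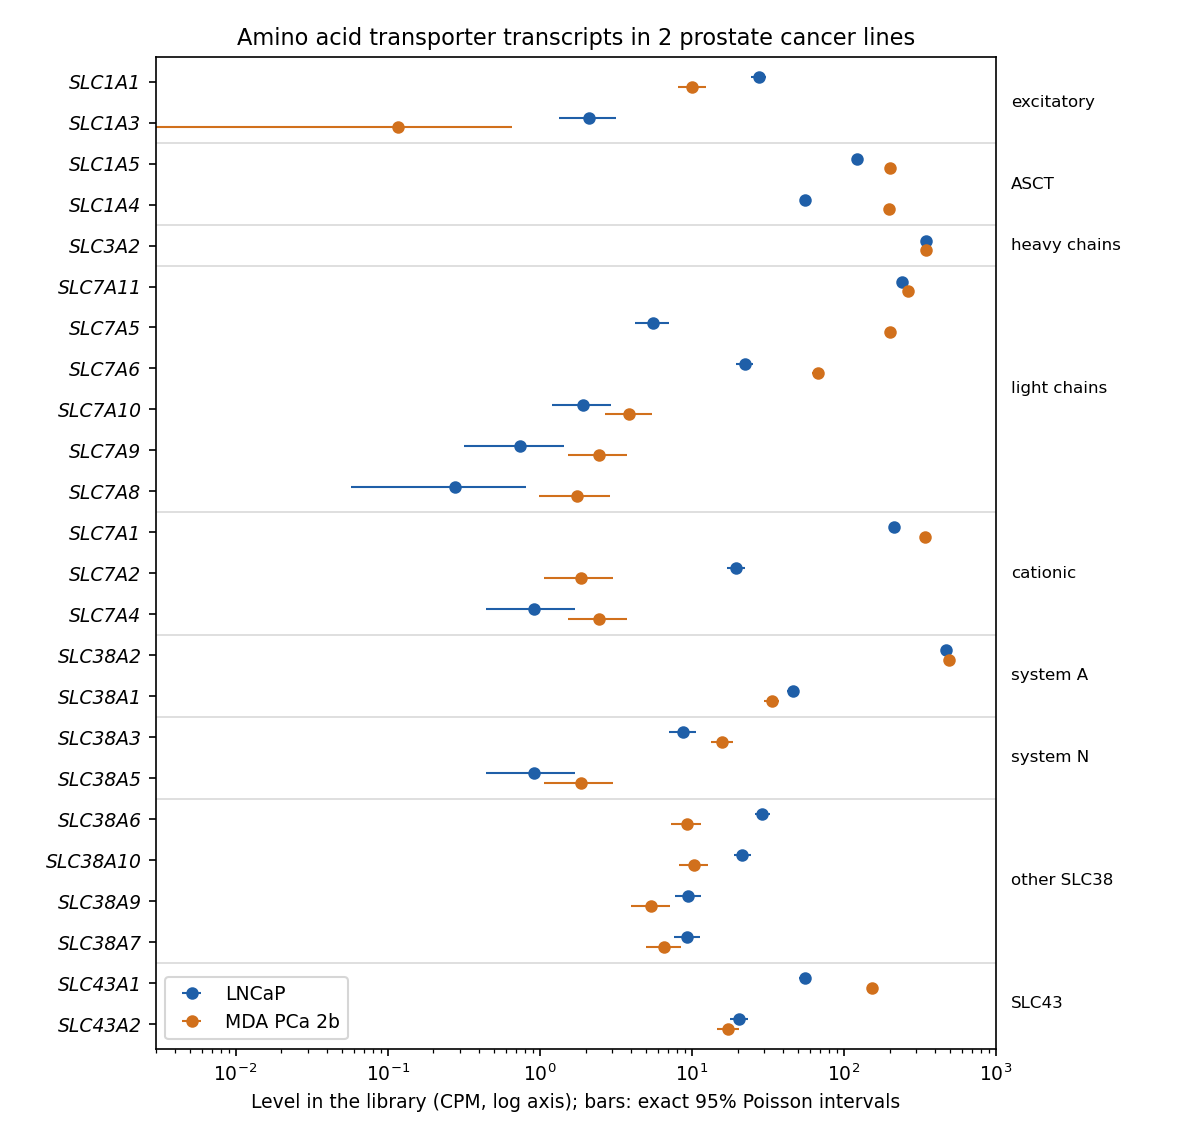
Level of each of the 24 measured transporters (CPM, log axis) in LNCaP (blue) and MDA PCa 2b (orange), grouped by role, with exact 95% Poisson intervals. SLC38A2 and SLC3A2 lie together near the top of the range in both libraries, while SLC7A5 moves from 5.54 to 201 CPM; the lower bar of SLC1A3 in MDA PCa 2b, at 1 count, runs off the axis.

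By its own row, the leucine carrier SLC7A5 had the largest ratio of the measured transporters. With its pseudogene rows added, its ratio of 4.43 (4.09 to 4.80) was below the gap of SLC7A2, 10.4-fold toward LNCaP (6.26 to 18.5). It was then also below the point values of the little-read SLC1A3 and SLC7A8. Their intervals, 2.93 to 744 toward LNCaP and 1.80 to 34.3, include 4.43, so that order is open. The SLC7A5 row alone had 60 counts in LNCaP against 1708 in MDA PCa 2b, or 5.54 and 201 CPM. It was among the less read transporters in LNCaP and close to SLC1A5 in MDA PCa 2b. The ratio was 36.3 (95% interval 28.0 to 47.7), and between 35.2 and 38.6 over the 5 scalings run. SLC3A2, the heavy chain that SLC7A5 needs, had 3774 and 2964 counts, which is 348 CPM in each library. Its ratio was 1.0 (0.953 to 1.05), so the counting interval leaves little room for a difference, although the scalings moved it from 0.972 to 1.06 and thus to either side of 1. SLC43A1 had 598 counts in LNCaP against 1300 in MDA PCa 2b, or 55.2 and 153 CPM, a ratio of 2.77 (2.51 to 3.06). SLC43A2, known as LAT4, a facilitator of the same substrates, had 223 and 147 counts with a ratio of 0.839 (0.677 to 1.04), an interval that includes 1. SLC7A8, the light chain LAT2, had 3 and 15 counts, a ratio of 6.37 (1.80 to 34.3) whose interval crosses 2-fold.

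Taken as system L, the sodium-independent route of leucine uptake, SLC7A5, SLC7A8, SLC43A1 and SLC43A2 summed to 81.6 CPM in LNCaP against 372 CPM in MDA PCa 2b, a ratio of 4.57. Without SLC7A5 the sums were 76.0 and 172 CPM, a ratio of 2.26. SLC43A1 held 67.6% of the reads of these 4 genes in LNCaP (exact 95% interval 64.5 to 70.7) against 41.0% in MDA PCa 2b (39.3 to 42.7). SLC7A5 held 6.79% in LNCaP (5.22 to 8.65) against 53.9% in MDA PCa 2b (52.1 to 55.6). These shares count the SLC7A5 row alone and compare amplicons that may not be equally efficient. With its pseudogene rows added, SLC7A5 held 48.5% of the reads in LNCaP (46.0 to 50.9), above the 37.4% of SLC43A1, and 64.8% in MDA PCa 2b (63.4 to 66.3). Which of these carriers led in LNCaP therefore turns on those rows.

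The value of SLC7A5 rests on 1 amplicon of a gene that shares a small part of its transcript with other genes. Whether the amplicon lies in that part was not tested. In the GENCODE 29 transcripts, 7.36% of the 25-base words of SLC7A5 recur in another gene's transcripts on the same strand, mainly those of SMG1P3 and the pseudogenes SLC7A5P2 and SLC7A5P1. The table lists the last 2 under amplicons of their own. SLC7A5P1 had 388 counts in LNCaP against 718 in MDA PCa 2b, a ratio of 2.36 (2.08 to 2.67), and SLC7A5P2 had 327 and 270, a ratio of 1.05 (0.892 to 1.24). In LNCaP both pseudogene rows thus had more reads than SLC7A5 itself, and in MDA PCa 2b both had fewer. With the 3 rows added together the counts were 775 and 2696 and the ratio fell to 4.43 (4.09 to 4.80), still beyond 2-fold in the same direction. Whether reads were divided among the 3 rows in the counting was not tested. The size of the SLC7A5 ratio, its shares and its place in the order are therefore uncertain. The values with and without the pseudogene rows are not limits of that uncertainty, and SMG1P3 was not part of the sum.

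**Figure D2:**
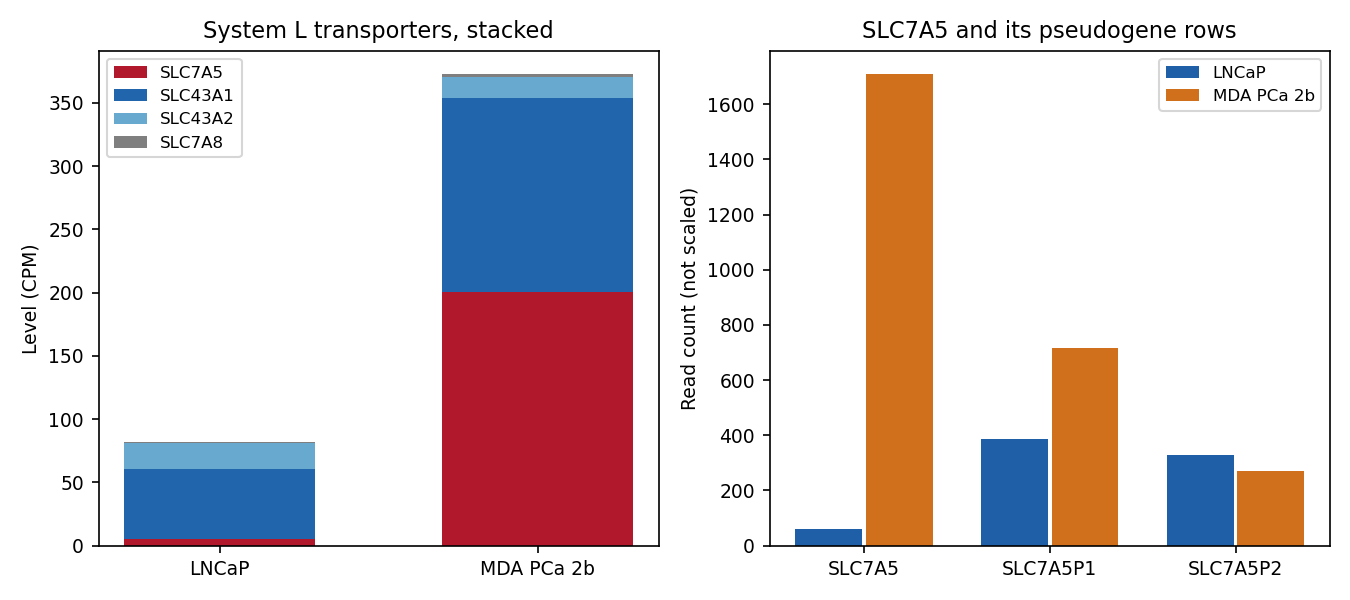
Left, level (CPM) of the system L carriers stacked for each library, 81.6 in LNCaP against 372 in MDA PCa 2b, with SLC43A1 the largest part in LNCaP and SLC7A5 in MDA PCa 2b when its own row alone is counted. Right, unscaled read counts of SLC7A5 and its pseudogenes SLC7A5P1 and SLC7A5P2, where SLC7A5 goes from 60 to 1708 counts and SLC7A5P2 from 327 to 270.

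Among the other light chains, which pair with SLC3A2 or SLC3A1, SLC7A6 was also higher in MDA PCa 2b. SLC7A6, known as y+LAT2, exchanges cationic amino acids for neutral ones with sodium. It had 242 counts in LNCaP against 574 in MDA PCa 2b, or 22.3 and 67.4 CPM, a ratio of 3.02 (2.59 to 3.52). SLC7A6OS lies opposite to it, and 53.3% of the 25-base words of SLC7A6 recur in antisense there; its own row had 246 and 222 counts, a ratio of 1.15 (0.954 to 1.38). The labels give no strand for the reads, so reads of such partners cannot be told apart. SLC7A11, known as xCT, imports cystine in exchange for glutamate and so feeds glutathione synthesis. Its counts of 2624 and 2255 gave 242 and 265 CPM and a ratio of 1.09 (1.03 to 1.16), a small difference beside the gap of SLC7A5. The antisense row SLC7A11-AS1 was at 0 in both libraries.

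The low light chains were of the kidney and brain types. SLC7A9, which pairs with SLC3A1 in the kidney to take up cystine and cationic amino acids, had 8 and 21 counts and a ratio of 3.34 (1.42 to 8.73). SLC3A1 itself had 0 counts in LNCaP against 1 in MDA PCa 2b. SLC7A10, a carrier of small neutral amino acids including D-serine, had 21 and 33 counts and a ratio of 2.00 (1.12 to 3.64). SLC7A7, known as y+LAT1, had 8 counts in each library and fell short of the minimum. None of these 4 genes could be placed beyond 2-fold at this depth. All 6 measured light chains had a ratio above 1, between 1.09 for SLC7A11 and 36.3 for SLC7A5.

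The exchangers ASCT1 and ASCT2 both read higher in MDA PCa 2b, to unequal degrees. SLC1A4, which encodes ASCT1, a carrier of alanine, serine, cysteine and threonine, had 601 counts in LNCaP against 1681 in MDA PCa 2b, or 55.5 and 198 CPM. Its ratio of 3.56 (3.24 to 3.92) lay wholly beyond 2-fold. SLC1A5, which encodes the glutamine carrier ASCT2, had 1318 and 1719 counts, or 122 and 202 CPM, a ratio of 1.66 (1.55 to 1.79) that stayed within 2-fold. Of the reads of the pair, SLC1A4 held 31.3% in LNCaP (29.2 to 33.4) against 49.4% in MDA PCa 2b (47.7 to 51.1). A lncRNA, AC008622.2, shares 26.5% of the 25-base words of SLC1A5 in antisense.

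The excitatory amino acid transporters, which take up glutamate and aspartate with sodium, were the low branch of the SLC1 family and went the other way. SLC1A1, known as EAAT3, also a route for cysteine, had 298 counts in LNCaP against 86 in MDA PCa 2b, or 27.5 and 10.1 CPM, and was 2.72-fold higher in LNCaP (2.13 to 3.50). SLC1A3, the glial carrier EAAT1, had 23 counts in LNCaP against 1 in MDA PCa 2b, a gap of 18.1-fold toward LNCaP with a wide interval of 2.93 to 744. It was the only member called with fewer than 50 counts in its higher library. SLC1A2, the main glutamate carrier of astrocytes, had 1 count in LNCaP against 0 in MDA PCa 2b, and SLC1A6 and SLC1A7 were at 0 in both.

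The cationic amino acid transporters, which carry arginine and lysine without a heavy chain, separated by member. SLC7A1, known as CAT1, had 2325 counts in LNCaP against 2925 in MDA PCa 2b, or 215 and 344 CPM. Its ratio of 1.60 (1.52 to 1.69) stayed within 2-fold. SLC7A2, known as CAT2, had 212 counts in LNCaP against 16 in MDA PCa 2b, or 19.6 and 1.88 CPM, and was 10.4-fold higher in LNCaP (6.26 to 18.5). Of the reads of this pair SLC7A2 held 8.36% in LNCaP (7.31 to 9.50) against 0.544% in MDA PCa 2b (0.311 to 0.882), so SLC7A1 was the more read in both libraries. SLC7A4, a relative for which transport has been hard to show, had 10 and 21 counts and a ratio of 2.67 (1.21 to 6.36). SLC7A3 had 4 counts in LNCaP against 0 in MDA PCa 2b, and SLC7A14 was at 0 in both.

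**Figure D3:**
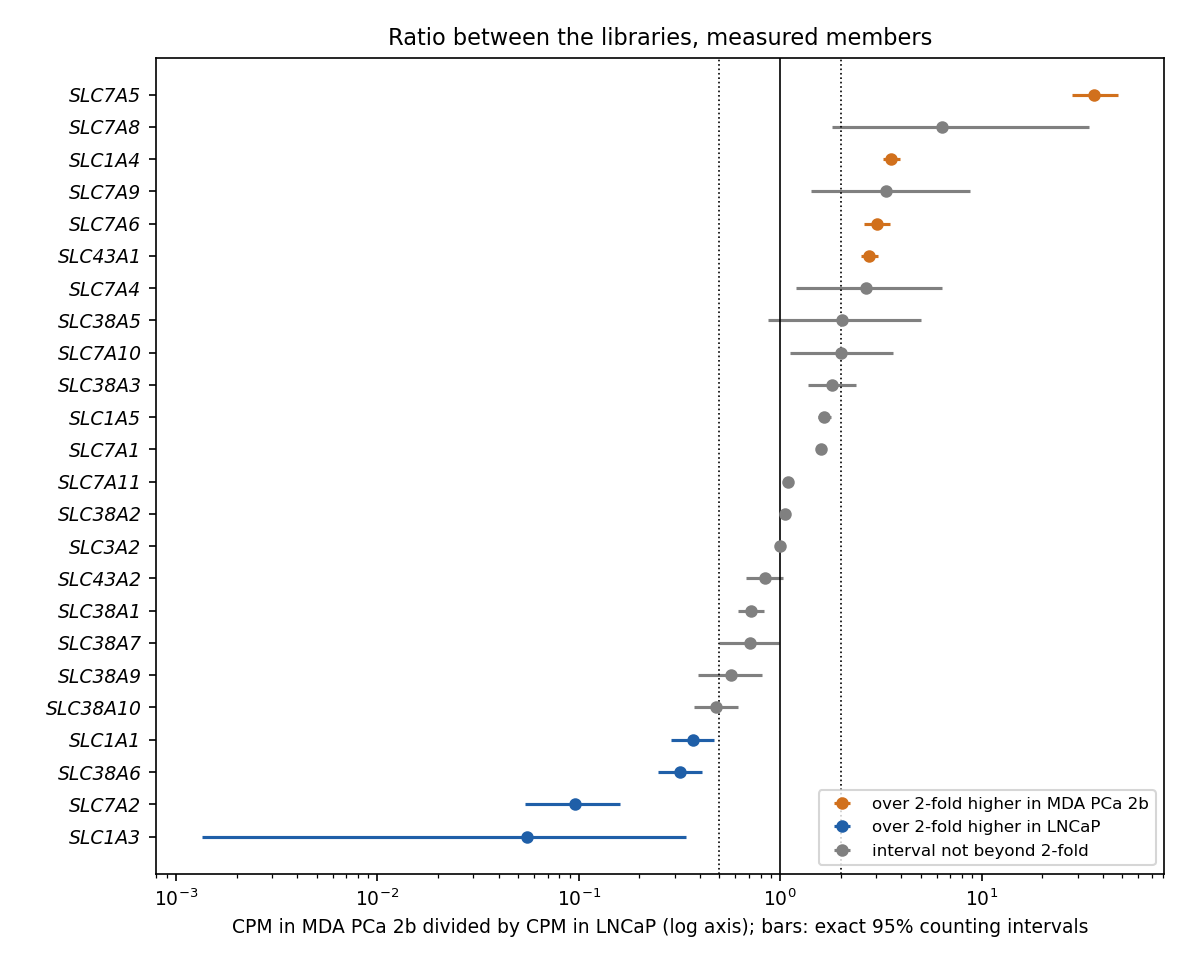
Ratio of CPM in MDA PCa 2b to CPM in LNCaP for the 24 measured transporters (log axis), with exact 95% counting intervals; the solid line is 1 and the dotted lines mark 2-fold in each direction. SLC7A5, by its own row, lies at 36.3, SLC7A2 and SLC1A3 lie lowest, and the well-read SLC3A2, SLC38A2 and SLC7A11 have narrow intervals near 1.

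System A, the sodium-coupled uptake of small neutral amino acids and glutamine, summed to 512 and 525 CPM, with no member called. SLC38A2, known as SNAT2, whose level follows amino acid supply in many cells, had 5046 and 4185 counts, or 466 and 492 CPM, with a ratio of 1.06 (1.01 to 1.10). SLC38A1, known as SNAT1, had 504 and 285 counts, or 46.5 and 33.5 CPM, and was 1.39-fold higher in LNCaP (1.20 to 1.61), within 2-fold. SLC38A4, a liver form, had 3 counts in LNCaP against 0 in MDA PCa 2b. The 3 genes follow each other on chromosome 12 in the GRCh38.p14 gene table, so neighbours in the genome ranged from the most read transporter in both libraries to a few reads. In system N, which couples glutamine and histidine to proton exchange, SLC38A3 had 95 and 135 counts and a ratio of 1.81 (1.38 to 2.38). SLC38A5 had 10 and 16 counts and a ratio of 2.04 (0.869 to 5.02), which includes 1.

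The 4 measured members among the remaining SLC38 genes had a ratio below 1. SLC38A6 had 315 counts in LNCaP against 79 in MDA PCa 2b, or 29.1 and 9.28 CPM, and was 3.13-fold higher in LNCaP (2.44 to 4.06). It overlaps TRMT5, whose transcripts hold 12.95% of its 25-base words in antisense. SLC38A10 had 233 and 88 counts and was 2.08-fold higher in LNCaP, with an interval of 1.62 to 2.69 that crosses 2-fold. SLC38A9, the lysosomal carrier that signals arginine to mTORC1, had 103 and 46 counts and was 1.76-fold higher in LNCaP (1.23 to 2.55). SLC38A7, which exports glutamine and asparagine from lysosomes, had 101 and 56 counts and was 1.42-fold higher in LNCaP (1.01 to 2.00). SLC38A11 had 2 counts in LNCaP against 0 in MDA PCa 2b, and SLC38A8 was at 0 in both. The 6 genes of this group summed to 69.6 CPM in LNCaP against 31.6 in MDA PCa 2b.

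Of the 12 transporters under 10 counts in both libraries, 5 were at 0 in both, namely SLC1A6, SLC1A7, SLC38A8, SLC7A13 and SLC7A14, and 7 had between 1 and 8 counts in a library. At 0 counts the limit is 3 counts, which is 0.277 CPM in LNCaP against 0.352 CPM in MDA PCa 2b. A lower level could give 0 counts or a few, such as the 1 count of SLC1A3 in MDA PCa 2b. The 18.1-fold gap of SLC1A3 was taken against that 1 count and not against the limit. SLC43A3, a nucleobase carrier and not an amino acid carrier despite its family, had 1 count in LNCaP against 0 in MDA PCa 2b. It lies close to SLC43A1 on chromosome 11, with 1 of the pair well read and the other hardly at all.

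The promoter windows of the 4 transporters called higher in MDA PCa 2b are shown because they are the members that were called in that direction. They are RefSeq windows on GRCh38.p14, 250 bases before to 50 after a listed start, printed 5′ to 3′ on the gene's strand. Capitals mark matches, on either strand, to CACGTG (the E-box bound by MYC, MAX and USF proteins), TGATGNAA (the composite C/EBP-ATF word through which ATF4 acts) or TGACNNNGC (the core of the antioxidant element bound by NRF2). The SLC7A5 window is chr16:87869458-87869757 on the minus strand, with the E-box 130 bases before the start. The SLC43A1 window is chr11:57515653-57515952 on the minus strand, with an E-box 112 bases before the start. The SLC7A6 window is chr16:68264276-68264575 on the plus strand and the SLC1A4 window chr2:64989149-64989448 on the plus strand, with its match on the reverse strand. SLC43A1 and SLC1A4 have 2 listed windows each, and the window with more matches is shown.
SLC7A5: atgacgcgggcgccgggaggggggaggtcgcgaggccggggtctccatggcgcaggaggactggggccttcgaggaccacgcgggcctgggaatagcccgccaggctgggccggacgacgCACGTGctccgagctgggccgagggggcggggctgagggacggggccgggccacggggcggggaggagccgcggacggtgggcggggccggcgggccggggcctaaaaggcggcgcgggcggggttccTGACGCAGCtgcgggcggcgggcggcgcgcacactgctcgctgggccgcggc
SLC43A1: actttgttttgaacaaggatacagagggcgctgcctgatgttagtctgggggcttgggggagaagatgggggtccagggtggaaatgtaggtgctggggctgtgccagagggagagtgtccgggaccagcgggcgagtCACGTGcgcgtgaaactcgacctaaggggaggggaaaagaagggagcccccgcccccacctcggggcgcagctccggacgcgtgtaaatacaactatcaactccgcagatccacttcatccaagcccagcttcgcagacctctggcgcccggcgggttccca
SLC7A6: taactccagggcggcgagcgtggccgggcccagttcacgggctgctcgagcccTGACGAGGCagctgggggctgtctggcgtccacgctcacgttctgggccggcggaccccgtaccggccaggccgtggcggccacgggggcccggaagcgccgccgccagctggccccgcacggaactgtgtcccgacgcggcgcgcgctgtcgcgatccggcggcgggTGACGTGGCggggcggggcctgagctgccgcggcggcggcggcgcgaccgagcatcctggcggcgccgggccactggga
SLC1A4: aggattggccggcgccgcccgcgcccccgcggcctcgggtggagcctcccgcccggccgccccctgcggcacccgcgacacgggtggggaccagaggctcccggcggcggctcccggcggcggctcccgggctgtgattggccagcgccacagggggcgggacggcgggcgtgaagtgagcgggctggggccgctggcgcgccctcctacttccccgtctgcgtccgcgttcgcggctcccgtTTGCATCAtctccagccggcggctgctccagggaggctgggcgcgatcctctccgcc

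The letters CACGTG, a word equal to its own reverse complement, occur in 7.26% of all 35116 promoter windows and in 8 of the 47 windows of the 27 transporters that have any (17.0%). Besides SLC7A5 and SLC43A1, the measured members with it in a window were SLC1A5, SLC38A5, SLC38A7 and SLC7A8, whose ratios ranged from 0.706 to 6.37. TGATGNAA occurs in 3.62% of all windows and in 6 of the 47 transporter windows (12.8%), those of SLC1A3, SLC1A4, SLC1A5, SLC38A1, SLC3A2 and SLC7A1. Members with this word ranged from SLC1A3, 18.1-fold higher in LNCaP, through SLC3A2 at a ratio of 1.0 to SLC1A4 at 3.56 in the other direction. TGACNNNGC occurs in 13.3% of all windows and in 7 of the 47 (14.9%). The measured members with it were SLC1A3, SLC1A5, SLC3A2, SLC7A1, SLC7A5 and SLC7A6, whose ratios ran from SLC1A3, the lowest of the measured transporters, to SLC7A5, the highest by its own row. No printed match overlapped a match to another of the words. Windows of the same gene share sequence, and a match is a description of letters and not of a bound site.

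The transporters were read beside 9 lists of genes that make, sense, use or carry amino acids. Of 24 measured genes of the ATF4 amino acid response, 5 were called higher in MDA PCa 2b, while ATF5 alone was higher in LNCaP, and the median log2 ratio was 0.16. ATF4 was at 724 CPM in LNCaP against 1375 in MDA PCa 2b, 1.90-fold higher (1.84 to 1.95) and within 2-fold. ASNS, the asparagine synthetase and a standard target of ATF4, was at 333 and 335 CPM, a ratio of 1.0 (0.956 to 1.06). ALDH1L2, the mitochondrial folate enzyme, had 4 counts in LNCaP against 539 in MDA PCa 2b, a ratio of 172 (66.6 to 632). PPP1R15A, which restores translation after stress, had 17 and 743 counts, a ratio of 55.7 (34.5 to 96.1), and ATF3 and VLDLR had ratios of 7.93 (7.33 to 8.59) and 3.42 (2.66 to 4.43). The fifth gene called in this direction was NUPR1, a stress-induced nuclear protein, with a ratio of 2.77 (2.68 to 2.86). Unlike ALDH1L2, the serine and one-carbon enzyme genes PSAT1, PHGDH, SHMT2 and MTHFD2 on the list were not called. PSAT1 was at 0.991 (0.962 to 1.02), PHGDH at 1.12 (1.07 to 1.18), SHMT2 at 0.533 (0.497 to 0.571) and MTHFD2 at 1.97 (1.88 to 2.08).

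Amino acid carriers outside the 5 families included SLC36A1, with a ratio above the 36.3 (28.0 to 47.7) of the SLC7A5 row alone, although the intervals overlap. Of 10 measured, 3 were called higher in MDA PCa 2b, while SLC6A20 was higher in LNCaP. Their median was 0.54, also with the gene at 0 set to 3 counts. SLC36A1, known as PAT1, a proton-coupled carrier of glycine, alanine and proline found on lysosomes, had 27 counts in LNCaP against 1231 in MDA PCa 2b, a ratio of 58.1 (39.7 to 88.5). The taurine carrier SLC6A6 had a ratio of 4.80 (3.86 to 6.02). PQLC2, a lysosomal exporter of cationic amino acids, had a ratio of 2.80 (2.38 to 3.30). SLC6A20, a proline carrier, had 14 counts in LNCaP against 0 in MDA PCa 2b, a gap of at least 3.66-fold when set against 3 counts. Of 11 measured mitochondrial carriers 0 were called, with a median of 0.07, although 1 passed under each of 3 other scalings. The ratios ranged from SFXN1, the serine carrier, 2.22-fold higher in LNCaP (1.98 to 2.50), to SLC25A13 at a ratio of 2.40 (1.93 to 2.99).

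Branched-chain amino acid breakdown, which disposes of the leucine that system L carries, was the list with the lowest median, -0.92. Of 24 measured, 8 were called higher in LNCaP. MUT, the methylmalonyl-CoA mutase, was 9.74-fold higher in LNCaP (7.71 to 12.5), DBT, the core subunit of the branched-chain dehydrogenase, 7.15-fold (5.86 to 8.78), and ALDH6A1 4.80-fold (3.20 to 7.43). ACAT1, of ketone body and isoleucine breakdown, was 4.36-fold higher in LNCaP (3.98 to 4.79). The 2 genes higher in MDA PCa 2b were MCCC2 and BCAT1. MCCC2, a subunit of the methylcrotonyl-CoA carboxylase of leucine breakdown, had 784 and 4604 counts, a ratio of 7.48 (6.93 to 8.08). BCAT1, the cytosolic transaminase, had 2 counts in LNCaP against 63 in MDA PCa 2b, a ratio of 40.1 (10.7 to 338). MCCC1, the partner subunit of MCCC2, went the other way, 3.93-fold higher in LNCaP (3.14 to 4.95). BCAT2, the mitochondrial transaminase, was 1.15-fold higher in LNCaP (1.05 to 1.25).

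In amino acid sensing upstream of mTORC1, 6 of 36 genes were called higher in LNCaP, 2 went the other way, and the median was -0.27. The kinase gene MTOR was at 54.9 and 48.6 CPM, a ratio of 0.886 (0.780 to 1.01). Of the sestrin genes, whose products hold back mTORC1 through GATOR2, SESN3 was 9.17-fold (6.84 to 12.5) and SESN1 2.41-fold (2.18 to 2.68) higher in LNCaP, while SESN2 had a ratio of 1.11 (1.03 to 1.19). WDR24, of the GATOR2 complex, was 4.86-fold higher in LNCaP (3.50 to 6.91). LAMTOR5, 1 of 3 called subunits of the lysosomal Ragulator complex, was 2.50-fold higher in LNCaP (2.19 to 2.86). KPTN, of the KICSTOR complex, had a ratio of 5.88 (4.42 to 7.96) and FNIP2 of 2.43 (2.11 to 2.79).

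Of 22 measured glutamine and glutamate enzymes, 3 were called higher in MDA PCa 2b, 2 went the other way, and the median was 0.32. GAD1, which makes GABA from glutamate, had 8 and 233 counts, a ratio of 37.1 (18.5 to 86.9), and OAT, of ornithine breakdown, had a ratio of 5.65 (4.54 to 7.10). CTPS1 had a ratio of 3.19 (2.80 to 3.64), and PPAT, the entry enzyme of purine synthesis, was 3.09-fold higher in LNCaP (2.77 to 3.44). On the glutathione list, which holds genes of breakdown as well as synthesis, 1 of 10 was higher in each direction, with a median of 0.27. Its synthesis genes GCLC, GCLM and GSS were not called. Their ratios were 1.45 (1.08 to 1.95), 0.635 (0.526 to 0.765) and 1.27 (1.18 to 1.37). GGT1, which breaks down glutathione outside the cell, had a ratio of 7.27 (6.16 to 8.63) and the peptidase gene LAP3 was 2.30-fold higher in LNCaP (2.09 to 2.53). GGT1 belongs to a family of near-identical copies, so its value is uncertain.

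The serine and glycine list had 2 of 14 members higher in each direction and a median of -0.06. Beside synthesis it holds genes of glycine cleavage, such as AMT and GCSH, and one-carbon enzyme genes. Its serine synthesis genes PHGDH, PSAT1 and PSPH were not called, with PSPH at a ratio of 0.894 (0.814 to 0.982). AMT and MTHFD1L had ratios of 2.70 (2.21 to 3.31) and 2.64 (2.38 to 2.93), and in the other direction GCSH stood 2.37-fold (2.09 to 2.69) and SHMT1 2.32-fold apart (2.07 to 2.61). Of the 20 cytosolic aminoacyl-tRNA synthetases, 2 were called higher in LNCaP, 0 in the other direction, and the median was -0.24. These were KARS, 2.44-fold apart (2.18 to 2.74), and AARS, 2.11-fold apart (2.01 to 2.20). LARS, which charges leucine, had a ratio of 1.40 (1.30 to 1.51). Each count in these lists stands beside the background of 10.9% of genes toward MDA PCa 2b against 13.2% toward LNCaP, and 9 genes are on 2 lists.

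**Figure D4:**
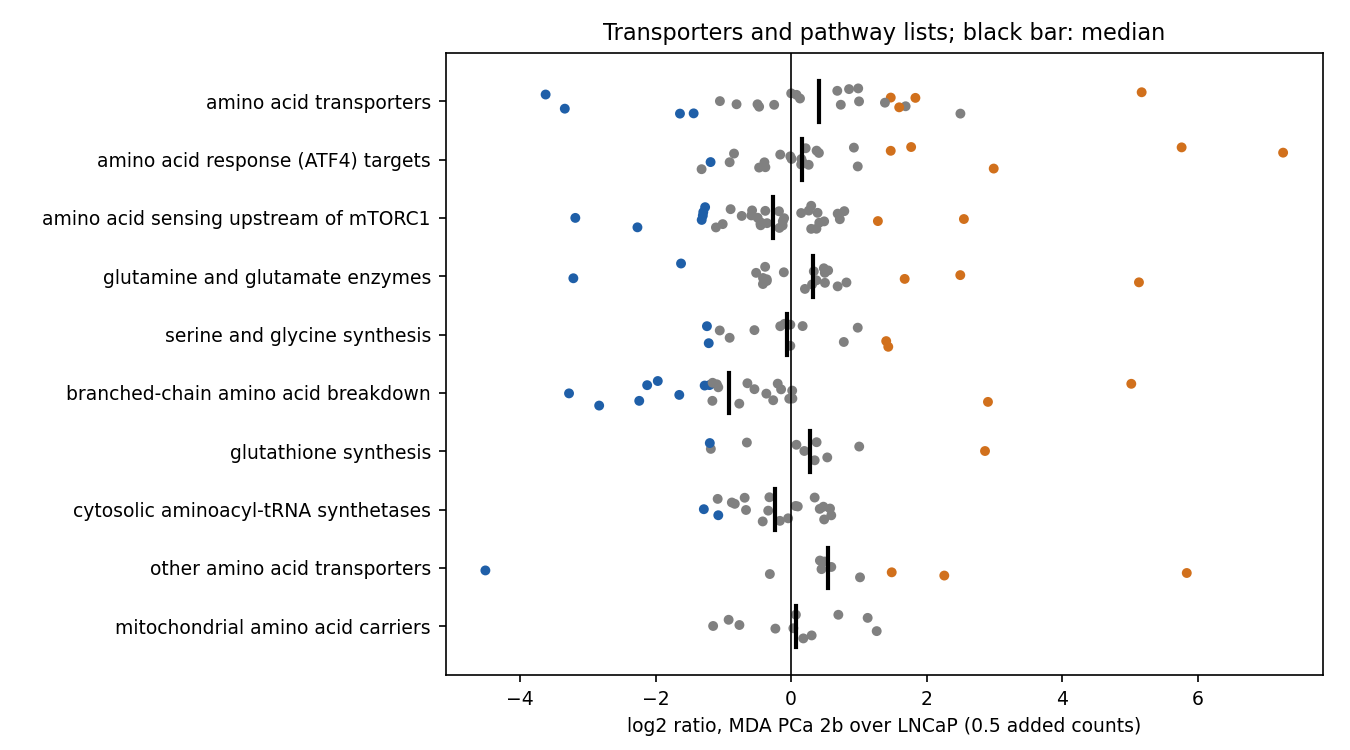
Log2 ratio of MDA PCa 2b over LNCaP (0.5 added counts) for the measured transporters and for the genes of 9 pathway lists, 1 point per gene. Orange points were called higher in MDA PCa 2b, blue points higher in LNCaP and grey points were not called; the black bar is the median, 0.41 for the transporters and -0.92 for branched-chain amino acid breakdown.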

How the data were processed

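Total RNA of LNCaP and MDA PCa 2b, 1 library each, was made into AmpliSeq Transcriptome libraries from 10 ng, per the labels' protocols. The deposited table holds raw read counts per amplicon, per the file headers and values. The submitters' processing notes name hg19 and DESeq without a role, and what aligned and counted the reads is unstated in the sources used here. Of 20812 rows, 10 spike-in rows with 0 counts were left out, and 28 rows whose symbols a spreadsheet had turned into dates were kept under their amplicon IDs. Transporter rows were taken by symbol. The members and lists were chosen with earlier results of these data known.

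Counts were scaled by total and edgeR 4.0.16 TMM factors (1.006 for LNCaP, 0.994 for MDA PCa 2b). Ratios have exact Clopper-Pearson 95% intervals conditional on the sum of both counts. Without molecular identifiers, PCR reads are not independent molecules, and the intervals and floors therefore cover counting error only. A gene at 0 was set against 3 counts, and no p-value was computed. Log2 ratios used 0.5 added counts. The calling step was tested on simulated counts. All measured transporters are named; of each list, up to 4 called genes with at least 50 counts and the largest ratio, plus ATF4, ASNS and MTOR; 2 further control genes of the rule are not reported here. Other genes named (PSAT1, PHGDH, PSPH, SHMT2, MTHFD2, NUPR1, SESN2, SESN1, LARS, BCAT2, MCCC1, ALDH6A1, ACAT1, ATF5, SFXN1, SLC25A13, SLC6A20, FNIP2, GCLC, GCLM, GSS and the marker genes) were picked after their values were seen. Of 212 listed genes, all were found, 3 under another symbol. Shared 25-base words came from GENCODE 29 transcripts and promoter windows from RefSeq on GRCh38.p14. Alternatives were other scalings (total counts, DESeq2 1.42.0 size factors, upper quartile, TMM without small nucleolar RNAs), thresholds, count minimums, pseudocounts, thinning and an assumed spread; adding the pseudogene rows to SLC7A5, for its ratio, shares and order, was chosen after seeing the data.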

Additional observations from a re-analysis of the deposited data

How the results depend on the processing

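The same 8 transporters were called under all 4 other scalings, with no count minimum and with LNCaP thinned to the smaller total. SLC1A3 was lost with a minimum of 50 counts. With the interval set beyond 1.5-fold, 7 transporters were called higher in MDA PCa 2b, 5 in LNCaP, and beyond 3-fold 2 and 1, by the construction of the threshold. With an assumed spread between libraries of 20%, 2 were called in each direction, and with 40% 1 in MDA PCa 2b, 2 in LNCaP. SLC7A5, SLC7A2 and SLC1A3 were called under both spreads, SLC1A4 under the first, and SLC1A1, SLC38A6, SLC43A1 and SLC7A6 under neither. The true spread between cultures was not measured, so calls near 2-fold are the least firm. The call of SLC1A3 is also not firm, as it rests on 23 counts in LNCaP against 1 in MDA PCa 2b. No ratio of a called transporter reversed. With the pseudogene rows added, SLC7A5 and not SLC43A1 held the most system L reads in LNCaP. Upper quartile scaling moved the median of all genes by 0.09 in log2. Over the lists, 10 of 130 counts moved by more than 1.5 times, 5 of them under upper quartile scaling, each by 1 or 2 genes. There the counts higher in LNCaP went to 0 for the ATF4, serine and glutathione lists. Leaving out a replicate was not possible with 1 library per line. No paired analysis was possible because each line had 1 library.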
